A study of Oryctolagus cuniculus with 18 samples.

Results

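LDHA and GAPDH, both used as reference genes by the study, were among the transcripts that were higher in the atherosclerotic aorta. They are 2 of the 89 assays on the rabbit wound healing array, where they stand among 5 reference genes beside 84 genes of interest (GOIs), and each was found by its symbol. Both were chosen by their known difference between the groups, so their levels are described here and no p-value of that difference is given. RNA came from the abdominal aorta of 18 male New Zealand White rabbits. The 9 control rabbits ate normal chow and carried healthy aortas. The 9 atherosclerotic rabbits had balloon denudation of the aorta and a diet with 0.30% cholesterol, changed after 8 weeks to 0.15% for the remaining 12 weeks, and are labelled as having stable advanced atherosclerosis. Diet and denudation always occurred together and cannot be told apart, and the methods state a single age for all rabbits at randomisation. The catheter was passed through the femoral arteries and its balloon injured the abdominal and thoracic aorta. Each gene was read in 1 well per rabbit by quantitative PCR.

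Glycolysis splits glucose into pyruvate with a gain of ATP and NADH. Glyceraldehyde-3-phosphate dehydrogenase (GAPDH) is the enzyme of its middle section that reduces NAD to NADH. The A subunit of lactate dehydrogenase (LDHA) acts at the end of the pathway, where it turns pyruvate into lactate and gives the NAD back, so that glycolysis can run with little oxygen. Smooth muscle cells form most of the normal aortic wall, and macrophages, which gather in plaques, are known to use glycolysis heavily when activated. Hypoxia-inducible factor is a textbook activator of both genes.

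Expression is given on the log2 scale as the mean threshold cycle (Ct) of ACTB and LOC100346936 minus the Ct of the gene, so that a rise of 1 unit is a doubling. A Ct is the PCR cycle at which a well crosses the detection threshold. ACTB is cytoplasmic actin, and LOC100346936 is listed as a gene like non-POU domain containing octamer-binding. The ACTA2 assay was kept out of this level because smooth muscle actin differed strongly between the groups. The level itself lay between 22.37 and 24.66 cycles in the control group and between 21.22 and 23.77 cycles in the atherosclerotic group. Control rabbit 3 had the latest level and atherosclerotic rabbit 20 the earliest.

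LDHA expression in the control group ran from -3.97 to -3.21, and the median was -3.83. Among atherosclerotic rabbits it ran from -1.995 to -0.73, and the median was -1.09. The groups did not overlap, and a gap of 1.21 units lay between the highest control rabbit, number 15, and the lowest atherosclerotic rabbit, number 12. The means were -3.74 ± 0.25 (SD, n = 9) and -1.15 ± 0.37 (SD, n = 9), a difference of 2.59 (standard error 0.15), or 6.04-fold.

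GAPDH expression in the control group ran from -0.20 to 0.18 and had a median of 0.11. Among atherosclerotic rabbits it ran from 0.61 to 2.51, and the median was 1.06. Every atherosclerotic rabbit was again above every control rabbit, with a gap of 0.43 units. This separation depended on the reference, since against LOC100346936 alone atherosclerotic rabbits 12 and 14 fell within the control range. Rabbits 20 (2.51) and 10 (1.89) stood highest, and the other 7 stayed between 0.61 and 1.115. The group means were 0.04 ± 0.13 (SD, n = 9) and 1.22 ± 0.60 (SD, n = 9), a difference of 1.17 (standard error 0.21), or 2.26-fold.

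**Figure D1:**
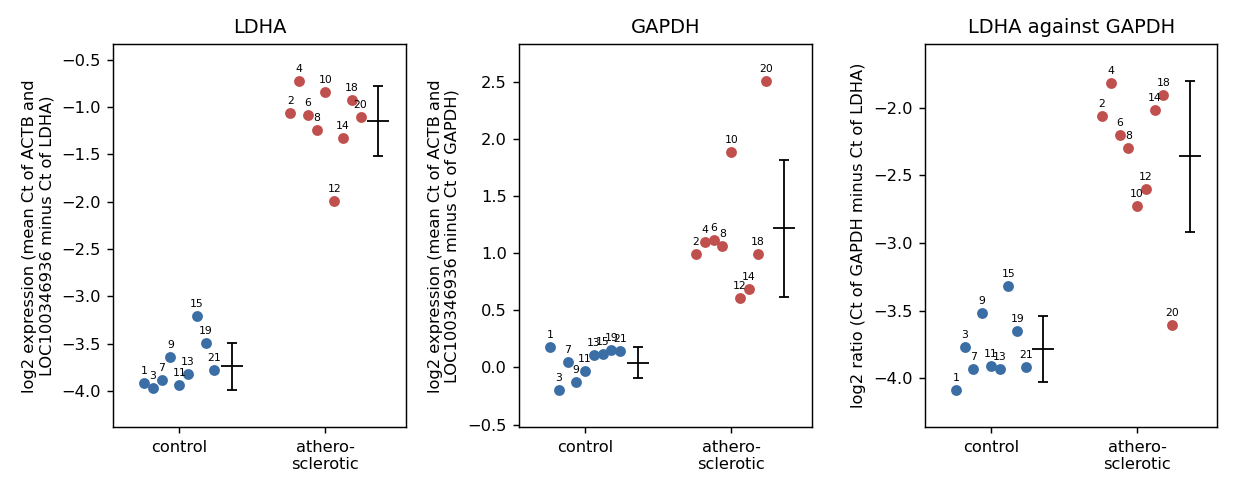
Log2 expression of LDHA (left) and GAPDH (middle) and the log2 ratio of LDHA to GAPDH (right) in each rabbit, numbered, with the mean and SD of each group of 9 as the bar beside the points. The groups are apart for LDHA and for GAPDH, while for the ratio atherosclerotic rabbit 20 (-3.61) lies among the control rabbits.

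On the level of ACTB and LOC100346936 both members, 2 of 2, thus had all atherosclerotic rabbits above all control rabbits. This was the case for 20.7% of the 87 assays outside the reference level. Since this contrast chose the members, nothing is read from their count. Among these 87 assays, LDHA had the 14th and GAPDH the 32nd highest difference between groups. The median assay differed by 0.49. LDHA exceeded that median by 2.11 units and GAPDH by 0.69 units. A change of reference shifts all assays alike and so cannot alter these excesses.

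Without any reference, the raw Ct of LDHA lay between 25.57 and 28.63 cycles in the control group and between 22.32 and 25.27 cycles in the atherosclerotic group. All atherosclerotic rabbits crossed the threshold earlier than all control rabbits. The raw Ct of GAPDH lay between 22.25 and 24.86 cycles in the control group and between 18.71 and 22.67 cycles in the atherosclerotic group, and here 5 of 9 atherosclerotic rabbits were earlier than every control rabbit. No well of either gene was near the limit of 35 cycles. The contractile genes LOC100009332 (transgelin, TAGLN) and ACTA2 mark smooth muscle, the main cell of the labelled tissue, and were detected in every rabbit, with a raw Ct from 18.29 to 20.44 and from 18.28 to 20.78 cycles in the control group.

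**Figure D2:**
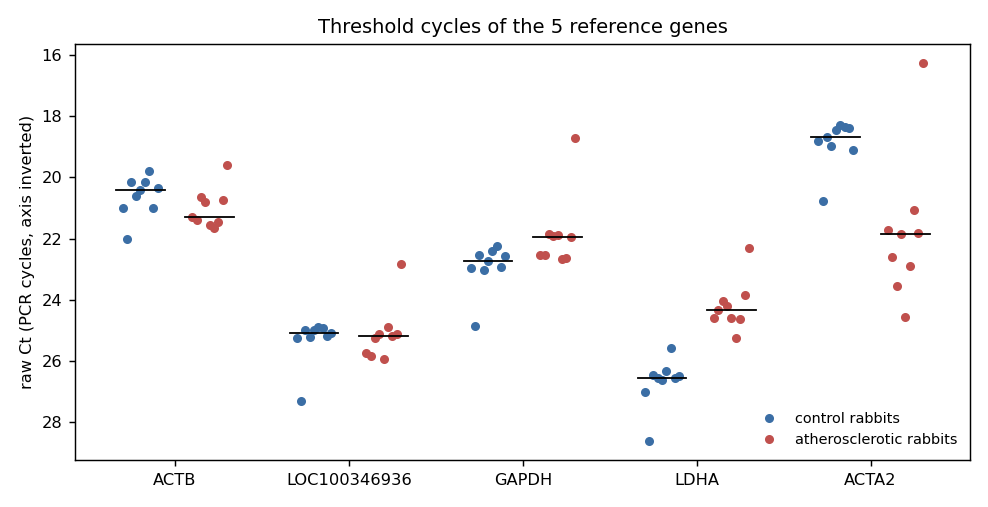
Raw Ct of the 5 reference genes in each rabbit of the control and atherosclerotic groups, with early cycles (more transcript) at the top and a line at each group's median. LDHA is earlier in all atherosclerotic rabbits, GAPDH in 5 of them, and ACTA2 is later in all but rabbit 20 (16.25 cycles).

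The size of each difference depended on the reference level, its direction did not. Against ACTB alone LDHA differed by 2.91 and against LOC100346936 alone by 2.28. The corresponding values of GAPDH were 1.49 and 0.86. These differ because the Ct gap between ACTB and LOC100346936 was smaller in the atherosclerotic group. The Ct of LOC100346936 minus that of ACTB averaged 4.72 ± 0.37 (SD, n = 9) over control rabbits and 4.09 ± 0.55 (SD, n = 9) over atherosclerotic rabbits. With ACTA2 added to the level, the differences were 3.54 for LDHA and 2.12 for GAPDH. The mean Ct of the 63 GOIs detected below 35 cycles in all rabbits, a level that holds inflammatory and contractile genes alike, gave 1.96 for LDHA and 0.54 for GAPDH. The level of all 5 reference genes that the authors used holds LDHA and GAPDH themselves and gave 2.53 and 1.11.

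**Figure D3:**
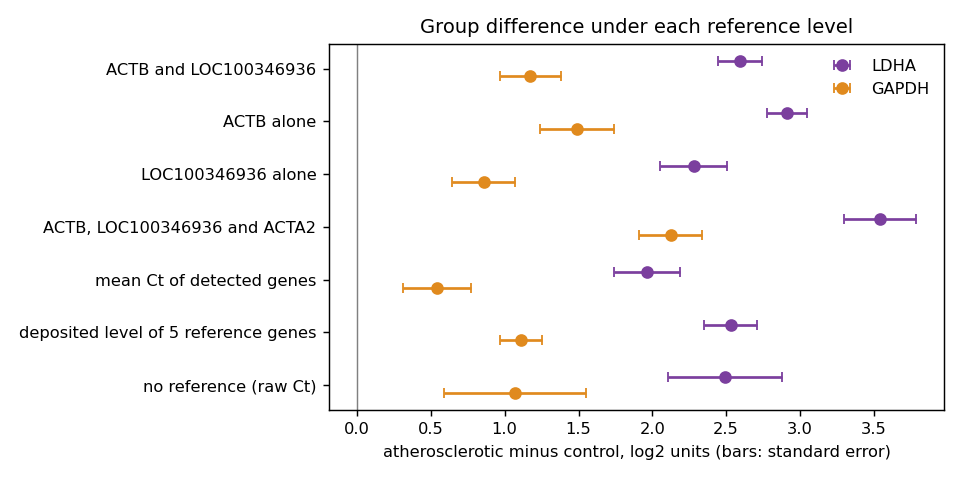
Difference between the groups (atherosclerotic minus control, log2 units, bars of 1 standard error) for LDHA and GAPDH under 7 settings of the reference, raw Ct among them. Both are above 0 in each, LDHA between 1.96 and 3.54 and GAPDH between 0.54 and 2.12.

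Setting LDHA against GAPDH in the same rabbit removes the reference genes. Amplification efficiency differs between assays, so this ratio is compared between rabbits only. The Ct of GAPDH minus that of LDHA ran from -4.09 to -3.32 in the control group, with a median of -3.91, and from -3.61 to -1.82 in the atherosclerotic group, with a median of -2.20. In 8 of 9 atherosclerotic rabbits the ratio was above every control rabbit. Rabbit 20, at -3.61, was below 2 control rabbits, numbers 15 (-3.32) and 9 (-3.52). The means were -3.78 ± 0.24 (SD, n = 9) and -2.36 ± 0.56 (SD, n = 9), so the fold difference of LDHA was 2.68 times that of GAPDH (difference 1.42, standard error 0.20). Without rabbit 20 the difference was 1.58.

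Rabbit 20 had an LDHA of -1.11, in the middle of its group, and the highest GAPDH of all rabbits. Its raw GAPDH Ct of 18.71 came more than 3 cycles before the other 8 atherosclerotic rabbits, which lay between 21.84 and 22.67. This rabbit was also the earliest of its group for raw LDHA (22.32), TLR4 (22.91) and CTSK (18.11), and its reference level of 21.22 came before the 22.94 to 23.77 of the other 8, so part of the raw gap is shared by all these assays. Its ACTA2 was also apart, 4.97 on the same log2 scale against -0.80 to 2.25 in the other 8, whereas its TAGLN of 2.39 was within their range. Without rabbit 20 the difference of GAPDH was 1.01 and that of LDHA 2.59. The cause was not tested.

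The variation among rabbits of a group had no part in the choice of these genes and could be tested. GAPDH deviated from its group median by 0.10 on average in the control group and by 0.37 in the atherosclerotic group. LDHA deviated by 0.18 and 0.24, and the ratio of LDHA to GAPDH by 0.18 and 0.38. None of these differences in spread passed an exact two-sided permutation test adjusted over the 3 values (adjusted p = 0.33 for GAPDH, 0.63 for LDHA and 0.33 for the ratio). Without atherosclerotic rabbit 20 the difference in mean deviation went from 0.269 to 0.135 for GAPDH and from 0.202 to 0.0736 for the ratio, and without atherosclerotic rabbit 12 that of LDHA went from 0.0589 to -0.0255.

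The next question was whether rabbits with more LDHA or GAPDH also had more of the inflammatory genes or less of the smooth muscle genes. Toll-like receptor 4 (TLR4) is a sensor of the innate immune system, cathepsin K (CTSK) is a protease of macrophages and osteoclasts that cuts elastin and collagen, and TAGLN is an actin-binding protein of contractile smooth muscle. Between the groups these genes separated fully. TLR4 averaged -7.41 ± 1.21 (SD, n = 9) over control rabbits and -2.04 ± 0.30 (SD, n = 9) over atherosclerotic rabbits. In the same order CTSK was -0.24 ± 0.37 (SD, n = 9) and 2.57 ± 0.48 (SD, n = 9), and TAGLN was 4.26 ± 0.25 (SD, n = 9) and 1.33 ± 1.04 (SD, n = 9). Since the groups form separate clusters, relations were computed inside each group only, 20 in all, with exact two-sided permutation tests over pairings.

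For LDHA and TLR4 in the atherosclerotic group, Pearson r was 0.67 (exact p = 0.035, adjusted p = 0.35 over the 20 relations, Spearman rho = 0.70, exact p = 0.043, adjusted p = 0.56). Without rabbits 12 and 4, the farthest from the median of LDHA, r was 0.59 (exact p = 0.16). For LDHA and CTSK r was 0.85 (exact p = 0.014, adjusted p = 0.28, rho = 0.57, exact p = 0.12, adjusted p = 0.56). This relation rested on those rabbits, since without rabbits 12 and 4 r was 0.05 (exact p = 0.91) and without rabbit 12 alone it was 0.45. Rabbit 12 was lowest of its group for both LDHA (-1.995) and CTSK (1.49), and its LOC100346936 Ct exceeded its ACTB Ct by only 3.23 cycles, as in rabbit 20, against 3.72 to 4.63 in the other 7. No relation held after adjustment, and 2 had an unadjusted p below 0.05.

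GAPDH in the atherosclerotic group had r = 0.64 with TLR4 (exact p = 0.061, adjusted p = 0.41, rho = 0.62, exact p = 0.086, adjusted p = 0.56) and r = 0.55 with CTSK (exact p = 0.13, adjusted p = 0.60, rho = 0.42, exact p = 0.27, adjusted p = 0.63). Without rabbits 20 and 10, these were 0.40 (exact p = 0.38) and 0.76 (exact p = 0.030). LDHA and GAPDH had r = 0.43 with each other (exact p = 0.24, adjusted p = 0.77, rho = 0.48, exact p = 0.19, adjusted p = 0.56), and 0.38 without rabbits 12 and 4. With TAGLN, r was -0.14 for LDHA (exact p = 0.76, adjusted p = 0.95, rho = -0.38, exact p = 0.31, adjusted p = 0.63) and -0.02 for GAPDH (exact p = 0.95, adjusted p = 0.95, rho = -0.22, exact p = 0.58, adjusted p = 0.84). Without their 2 farthest rabbits these were -0.71 (exact p = 0.072) and -0.24 (exact p = 0.58). TAGLN ran from -0.255 to 2.56 among atherosclerotic rabbits, and its relation to neither gene passed the test. On the mean Ct of the 63 detected GOIs, r with TAGLN was -0.56 for LDHA (exact p = 0.12, adjusted p = 0.20) and -0.66 for GAPDH (exact p = 0.054, adjusted p = 0.15), and without rabbits 20 and 10 for LDHA or 10 and 14 for GAPDH it was -0.41 and -0.21.

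Among the control rabbits LDHA and GAPDH had r between -0.29 and 0.40 with TLR4, CTSK and TAGLN and r = 0.33 with each other, with adjusted p from 0.77 to 0.95 in the exact tests. Spearman rho lay between -0.13 and 0.52 and its adjusted p between 0.56 and 1. Leaving out the 2 rabbits farthest from the median moved r to between -0.18 and 0.42.

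The ratio of LDHA to GAPDH, which shares no reference gene with its partner, had r = 0.52 with TLR4 in the control group (exact p = 0.15, adjusted p = 0.60, rho = 0.61, exact p = 0.087, adjusted p = 0.56), and 0.38 without rabbits 15 and 9. Among atherosclerotic rabbits it had r = -0.02 with CTSK (exact p = 0.94, adjusted p = 0.95, rho = 0.27, exact p = 0.49, adjusted p = 0.84), which turned to 0.90 without rabbits 20 and 10 (exact p = 0.0048) and to 0.67 without rabbit 20 alone. The same ratio had r = -0.25 with TLR4 (exact p = 0.55, adjusted p = 0.91, rho = 0.12, exact p = 0.78, adjusted p = 0.84) and 0.76 without rabbits 20 and 10 (exact p = 0.05). The other 3 relations of the ratio had r between -0.38 and -0.06, with adjusted p from 0.77 to 0.95 in the exact tests, rho between -0.48 and 0.15 with adjusted p from 0.56 to 0.84, and r between 0.18 and 0.36 without their 2 farthest rabbits. The difference of a relation between the groups was not tested.

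These relations depended on the reference level, which is shared by both genes of a pair. With LDHA set against LOC100346936 and its partner against ACTB, r in the atherosclerotic group was -0.29 with TLR4 and 0.18 with CTSK. With the references exchanged, r was 0.56 and 0.61. For GAPDH in the same group, r with TLR4 and CTSK was 0.30 and 0.54 when GAPDH was set against LOC100346936, and 0.017 and 0.022 when it was set against ACTB. On the mean Ct of the 63 detected GOIs the r of LDHA was 0.88 with TLR4 (exact p = 0.0038, adjusted p = 0.038) and 0.91 with CTSK (exact p = 0.0010, adjusted p = 0.021), with rho of 0.87 and 0.83 (both adjusted p = 0.069 in the exact tests). Without rabbits 20 and 10 these r were 0.83 and 0.96. GAPDH in the atherosclerotic group had r = 0.66 with TLR4 and 0.59 with CTSK on that level, with adjusted p of 0.15 and 0.20 in the exact tests. That level itself contains TLR4 and CTSK.

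**Figure D4:**
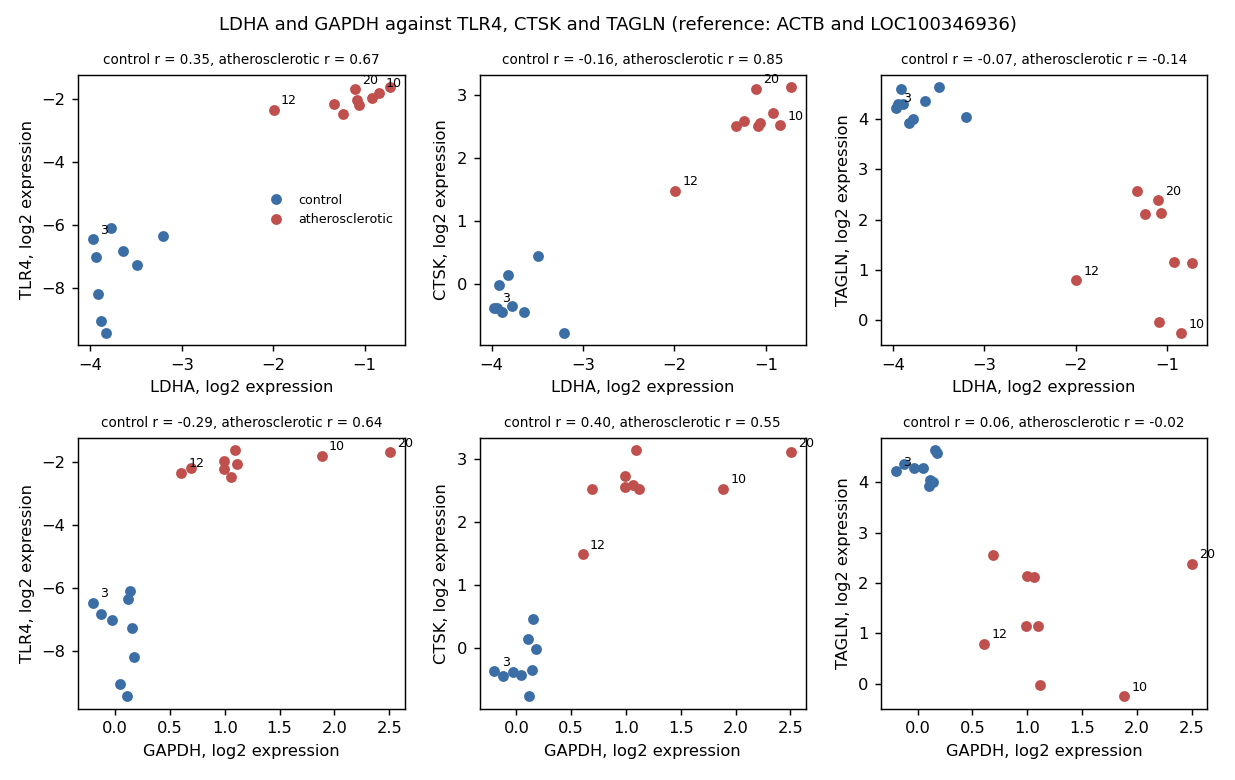
Log2 expression of TLR4, CTSK and TAGLN (LOC100009332) against that of LDHA (top) and GAPDH (bottom) for each rabbit on the level of ACTB and LOC100346936, with the Pearson r of each group of 9 above and rabbits 3, 10, 12 and 20 numbered. The groups form separate clusters, and the r of 0.85 between LDHA and CTSK in the atherosclerotic group leans on rabbit 12.

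For each gene, its likeness to LDHA or GAPDH was taken as the mean of the Pearson r over the 9 control and the 9 atherosclerotic rabbits, among 65 genes with a Ct below 35 in every rabbit. All of them share the reference level, and the values are a description without a test. The genes most like LDHA were PLAU (0.57), the urokinase that activates plasminogen, the integrin subunit ITGA2 (0.54), which binds collagen, and TLR4 (0.51). GAPDH stood 9th with 0.38 and CTSK 10th with 0.35, while the median gene had 0.06. The genes least like LDHA were CD40LG (-0.52), the CD40 ligand of T cells, the transcription factor STAT3 (-0.52) and the urokinase receptor PLAUR (-0.40).

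PLAU was also the gene most like GAPDH (0.71), followed by the collagen gene COL1A2 (0.64) and interferon gamma (IFNG, 0.63). The median gene had a likeness of 0.18 to GAPDH, and LDHA stood 15th. CD40LG (-0.67), PLAUR (-0.49) and tissue factor F3 (-0.38) were least like GAPDH. On the mean Ct of the 63 detected GOIs the likeness of STAT3 to LDHA turned to 0.23, that of PLAUR was -0.09 and that of TLR4 was 0.28, and the likeness of F3 to GAPDH was -0.09. There LDHA had a likeness of 0.50 with PLAU, 0.62 with ITGA2 and -0.32 with CD40LG. GAPDH had 0.61 with PLAU, 0.39 with COL1A2, 0.51 with IFNG, -0.43 with CD40LG and -0.19 with PLAUR. None of the 3 genes at either end for LDHA or GAPDH was among the 3 at the same end on that level.

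**Figure D5:**
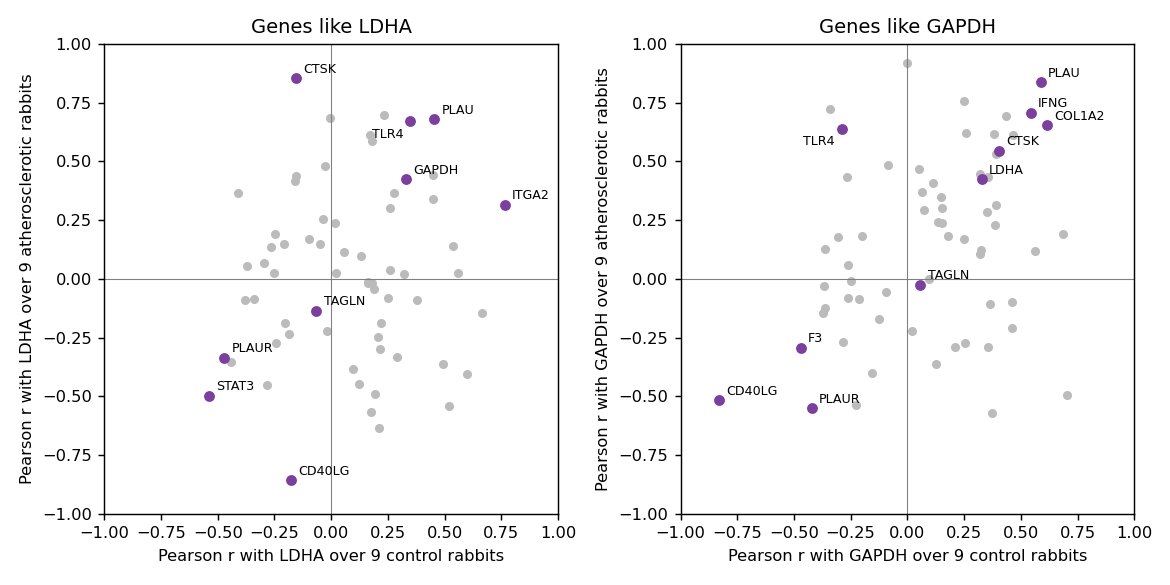
Pearson r of each of 65 genes with LDHA (left) and GAPDH (right) over the 9 control rabbits (horizontal) and the 9 atherosclerotic rabbits (vertical), with named genes in purple. PLAU lies at the upper right for both, CD40LG at the lower left, and CTSK is high for LDHA in the atherosclerotic group (0.85) without being so in the control group (-0.16).

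No other step of the glycolytic pathway was on the array. Of 29 genes of glycolysis, glucose and lactate transport that were looked for, LDHA and GAPDH were the 2 measured. Of 7 known targets of hypoxia-inducible factor, 4 were measured, and on the level of ACTB and LOC100346936 2 of them rose in limma (adjusted p below 0.05 over 87 assays) and none fell, where 41.4% of all assays rose and 21.8% fell. These shares are over all 87 assays, LDHA and GAPDH included, and nothing about either gene is read from them. The vascular growth factor VEGFA rose from -5.43 ± 0.46 (SD, n = 9) to -4.13 ± 0.54 (SD, n = 9), a difference of 1.31 (standard error 0.25, adjusted p = 0.00013 from limma). PLAUR rose by 2.38 (standard error 0.96, adjusted p = 0.037 from limma), a call lost in the exact permutation test (adjusted p = 0.060), on the level of the 63 detected GOIs (adjusted p = 0.11) and without control rabbit 11, 13, 15 or 19 or atherosclerotic rabbit 2, 6, 8, 10 or 12. The cytokine MIF differed by 0.39 (adjusted p = 0.086 from limma), passed in the exact permutation test and without rabbit 11 or 20, and differed by -0.25 on the level of the 63 detected GOIs.

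Many markers of cell types also differed between the groups, some upward and some downward. In aorta as a whole, fewer cells of a type and less RNA per cell cannot be told apart. Of 9 measured inflammatory genes of myeloid cells, 7 rose and none fell, with a median difference of 2.81. TLR4 rose by 5.37 (adjusted p = 4.6e-10 from limma), IL10 by 4.22, MMP9 by 4.26, CCL2 by 3.54, CTSK by 2.81 and PLAUR, counted above, by 2.38. TNF, at the 35-cycle limit in all 9 control rabbits, was at least 5.27-fold higher. IL1B (1.30, adjusted p = 0.21 from limma) and IL6 (0.97, adjusted p = 0.12) did not pass, although IL1B did without control rabbit 3 (adjusted p = 0.015). IL10 had 2 and MMP9 had 6 control wells at the limit, so their differences are lower bounds in part. The 3 measured genes of the macrophage list (TLR4, CTSK and MMP9) are among these 9 myeloid genes, and all rose, with a median of 4.26. CTSK was also abundant in the control group, with a mean raw Ct of 23.20, near the 22.92 of GAPDH. The paper saw no macrophages in control arteries by antibody staining. Which cells expressed CTSK was not tested.

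All 3 measured contractile genes fell in the atherosclerotic group, with differences of -2.93 for TAGLN (adjusted p = 4.4e-07 from limma), -2.85 for ACTA2 (adjusted p = 0.00013) and -0.96 for the cardiac actin ACTC1 (adjusted p = 0.044). ACTC1 had 7 atherosclerotic wells and 1 control well at the 35-cycle limit, so its difference is a bound in part, and it was -2.39 with late wells as deposited. The last call was lost in the exact permutation test (adjusted p = 0.060) and on leaving out any single rabbit other than control rabbits 1 and 9 and atherosclerotic rabbits 14 and 20. Of 4 T cell genes CD40LG rose by 1.84, IL2 fell by 1.99, and IFNG (-0.04) and IL4 (0.25) did not pass, although IFNG fell on the level of the 63 detected GOIs. Of 2 matrix genes of fibroblasts COL1A2 rose by 1.67 and DCN (1.02, adjusted p = 0.079 from limma) did not pass, except without rabbit 21 or 2. No endothelial marker was measured. The part of these cells in the difference of LDHA and GAPDH was not tested.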

How the data were processed

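TRIzol-extracted RNA was reverse-transcribed (RT2 First Strand Kit) and amplified with SYBR green on a Mx3000P system, with analysis in GeneGlobe. The authors deposited raw Ct values and, by the deltaCt method, the ratio of each gene to the level of ACTA2, ACTB, GAPDH, LDHA and LOC100346936. The deposited ratio of these genes matched the geometric mean of their 5 Ct values within 1.0e-05 cycles. Another deposited table, holding the authors' own fold changes, was not used.

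Here the raw Ct was used, with wells above 35 or undetermined set to 35. Rabbits were matched to columns by the number in their titles. The 87 assays outside ACTB and LOC100346936 were compared with limma 3.58.1 (lmFit and eBayes, R 4.3.3), without covariates, LDHA and GAPDH included in the fit and the adjustment but given no p, with Benjamini-Hochberg adjustment and a threshold of 0.05. Spread and relations were tested by exact two-sided permutation in Python 3.11.15 with numpy 2.4.6. The limma step and the exact test were tested on simulated data. Named genes are the members, the other reference genes, TLR4, CTSK, LOC100009332, the genes of the lists, and the 3 most and 3 least like each member. The members, lists and rules were chosen with earlier results of these data known. Alternatives were other reference levels, separate references for the 2 genes of a relation, late wells as deposited, undetected genes left out, exact tests and leaving out each rabbit. With 1 well per gene and rabbit, the variation among rabbits includes that of the PCR. No protein or promoter sequence was used here, and some genes of the lists are not reported here.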

Additional observations from a re-analysis of the deposited data

Results flagged for a closer look

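Atherosclerotic rabbit 12 stood far from its group for 2 genes. In all, 14 sets of values were searched in this way, and about 0.7 such cases come up by chance. The 2 cases are not independent, since both values are set against the same reference level of this rabbit. Its LDHA was -1.995 on the log2 scale, against -1.33 to -0.73 in the other 8 atherosclerotic rabbits, and its CTSK was 1.49, against 2.51 to 3.14. Without rabbit 12 the difference of LDHA between the groups was 2.70. The cause was not tested.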

How the results depend on the processing

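Neither LDHA nor GAPDH changed direction under any alternative run. The mean Ct of the 63 detected GOIs moved the difference of LDHA to 1.96 and that of GAPDH to 0.54, and ACTA2 in the level moved them to 3.54 and 2.12. Leaving out each rabbit kept LDHA between 2.54 and 2.70, GAPDH between 1.01 and 1.25 and their ratio between 1.35 and 1.58. No paired analysis was possible because the groups share no rabbit number. The level of the 63 GOIs moved the median of all 87 assays from 0.49 to -0.14 and the calls from 36 higher and 19 lower to 28 higher and 30 lower. Depth is 1 well per value, and the 35-cycle limit bears on none of the LDHA or GAPDH values.

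The relations were less firm, and the cause of each change was not tested. On the level of the 63 GOIs, r in the control group became -0.33 (LDHA with TLR4), 0.32 (LDHA with CTSK) and 0.36 (LDHA with TAGLN), and kept its sign at -0.78 (GAPDH with TLR4, exact p = 0.0099, adjusted p = 0.066), 0.70 (GAPDH with CTSK, exact p = 0.036, adjusted p = 0.15), 0.62 (GAPDH with TAGLN, exact p = 0.079, adjusted p = 0.20) and 0.71 (LDHA with GAPDH, exact p = 0.032, adjusted p = 0.15). In the atherosclerotic group it became 0.88 (LDHA with TLR4) and 0.91 (LDHA with CTSK), which then passed the threshold, and for the ratio 0.19 (TLR4), 0.30 (CTSK) and 0.14 (TAGLN). With LDHA or GAPDH against LOC100346936 and the partner against ACTB, r in the control group became -0.58 (GAPDH with CTSK), -0.79 (GAPDH with TAGLN) and -0.42 (LDHA with GAPDH), and in the atherosclerotic group -0.29 (LDHA with TLR4) and -0.19 (LDHA with GAPDH). With these references exchanged, r in the control group became -0.27 (GAPDH with TAGLN), 0.19 (ratio with TAGLN) and -0.18 (LDHA with GAPDH), and in the atherosclerotic group 0.20 (LDHA with TAGLN), 0.25 (ratio with TLR4), 0.27 (ratio with CTSK) and 0.11 (ratio with TAGLN).

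Leaving out single rabbits turned the sign of some relations that had not passed. In the control group r ranged from -0.63 to 0.54 (LDHA with CTSK), -0.36 to 0.34 (LDHA with TAGLN), -0.16 to 0.19 (GAPDH with TAGLN), -0.76 to 0.0061 (ratio with CTSK) and -0.27 to 0.20 (ratio with TAGLN). In the atherosclerotic group it ranged from -0.61 to 0.051 (LDHA with TAGLN), -0.60 to 0.29 (GAPDH with TAGLN), -0.56 to 0.26 (ratio with TLR4), -0.31 to 0.67 (ratio with CTSK) and -0.26 to 0.51 (ratio with TAGLN). The difference in spread of LDHA ranged from -0.026 to 0.11, and IFNG from -0.36 to 0.042. IL4 was -0.38 on the level of the 63 GOIs and -0.15 with late wells as deposited, and MIF was -0.25 on the former.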

Other observations

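On the mean Ct of the 63 detected GOIs, the genes most like LDHA were GRB2, with a mean within-group r of 0.73, MIF (0.73) and MAPK3 (0.69), and among those most like GAPDH were PIK3CA (0.85) and GRB2 (0.67). GRB2 is an adaptor of growth factor receptors, MAPK3 is the kinase ERK1, and PIK3CA is the catalytic subunit of phosphatidylinositol 3-kinase. LDHA and GAPDH had a likeness of 0.64 to each other on this level, against 0.38 on the level of ACTB and LOC100346936. The level of the 63 GOIs was an alternative, and these genes were named after their values were seen. The points are 9 control and 9 atherosclerotic rabbits that share the reference level, and no test was made.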
